A study of Rattus norvegicus with 30 samples.

Results

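The set described here holds 46 genes of mitosis and of the G2 to M transition of the cell cycle, out of 21993 genes listed in the deposited tables, in primary cultures of rat hippocampal neurons that were given a fumarate, DMF or MMF, or cannabidiol (CBD). The genes were chosen by symbol, from the comparisons of each drug with its vehicle at both times, of DMF with MMF at both times, and of DMF at 24 h with DMF at 4 h. Together these 9 comparisons use all 30 libraries, so the values of the 46 genes in every comparison are a description. Counts of genes called by limma, or whose groups do not overlap, stand beside the share of all genes. Counts at an unadjusted p under 0.05, counts from edgeR or DESeq2 and counts with libraries left out have no such share here and are listed only. No p-value of a member is printed. Earlier results of these data had already named *Top2a*, *Iqgap3* and *Troap* as lower with DMF at 24 h. The rule set no threshold. All 46 genes were listed in every table, each under 1 Ensembl identifier, and all 46 passed the filter on low counts in every comparison.

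The cultures were wild-type Wistar hippocampal cells taken at embryonic day 18 and grown for 7 days in serum-free neurobasal medium with B-27, and the culture protocol names no agent against dividing cells. They received 30 µM DMF or 30 µM MMF, both dissolved in dimethyl sulfoxide (DMSO), or 6 µM CBD dissolved in ethanol (EtOH), with DMSO alone or EtOH alone as vehicle and 0.2% vehicle throughout, for 4 or 24 h. This gave 10 groups of 3 libraries (30 libraries in all) of poly(A) RNA, 1 library from each of 3 repeats of the experiment. The sources used here do not say whether the repeats came from separate litters, so the calls measure the spread between these libraries. DMF (dimethyl fumarate) is the dimethyl ester of fumaric acid, and MMF (monomethyl fumarate) is the monomethyl ester formed from it by hydrolysis.

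Cells enter mitosis when CDK1 bound to cyclin B becomes active, and they leave it when the anaphase promoting complex destroys cyclin B and securin. Between those steps the chromosomes condense, kinetochores attach to spindle microtubules under the watch of the spindle checkpoint, and a contractile ring divides the cell. Most genes of this programme are transcribed in G2 and M only and are largely silent in cells that have left the cycle. Neurons are postmitotic, so in a hippocampal culture these transcripts are known mainly from the progenitors and glial precursors that still divide. In bulk RNA, fewer dividing cells and less of these mRNAs per cell cannot be told apart.

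The libraries held between 15108132 and 25367834 reads on genes (median 20088658). A member had between 29 and 2807 reads in a library, with a median of 350. Neuronal markers dominated the marker lists, with a summed level of 6673 to 8756 CPM (counts scaled to a common library size, with TMM factors) over the DMF and DMSO libraries at 24 h, whereas astrocyte markers summed to 3184 to 5999.9 CPM there and precursor and progenitor markers were also present. Microglia markers summed to 3.51 to 6.66 CPM in the same 6 libraries. Over all 435 pairs of libraries, the closest counts still differed by a chi-square of 2.06 per gene, where sampling noise alone gives about 1.

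Summed over the 46 genes, the 3 DMF libraries at 24 h were the 3 lowest of the 30. They held 510.2, 449.5 and 502 CPM, a mean of 487 ± 32.9 (SD, n = 3). DMSO at 24 h held 999.5, 917 and 942 CPM, a mean of 953 ± 42.4 (SD, n = 3). Matched by replicate number, DMF at 24 h was at 51, 49 and 53.3% of DMSO. The other 27 libraries lay between 803 CPM, in replicate 3 of CBD at 24 h, and 1429 CPM, in replicate 1 of DMF at 4 h, so no other group overlapped with DMF at 24 h. For 44 of the 46 genes taken singly, the 3 DMF libraries at 24 h were also the 3 lowest of the 30. The share of all genes with that order was not computed, so the count of 44 is listed only. The low level with DMF at 24 h is the pattern that drew the genes together, and it is shown as such.

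**Figure D1:**
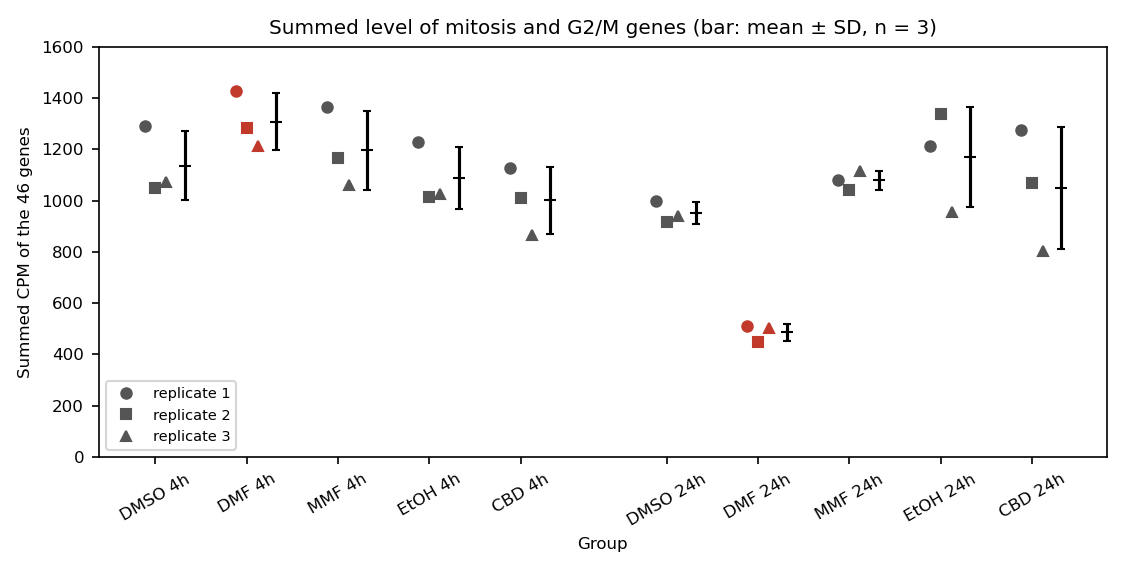
Summed CPM of the 46 genes (vertical axis, linear from 0) in each of the 30 libraries by group (horizontal axis). Marker shapes give the replicate number, red marks DMF, and bars give mean ± SD (n = 3). The 3 DMF libraries at 24 h lie between 449.5 and 510.2 CPM, and the other 27 between 803 and 1429 CPM.

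**Figure D2:**
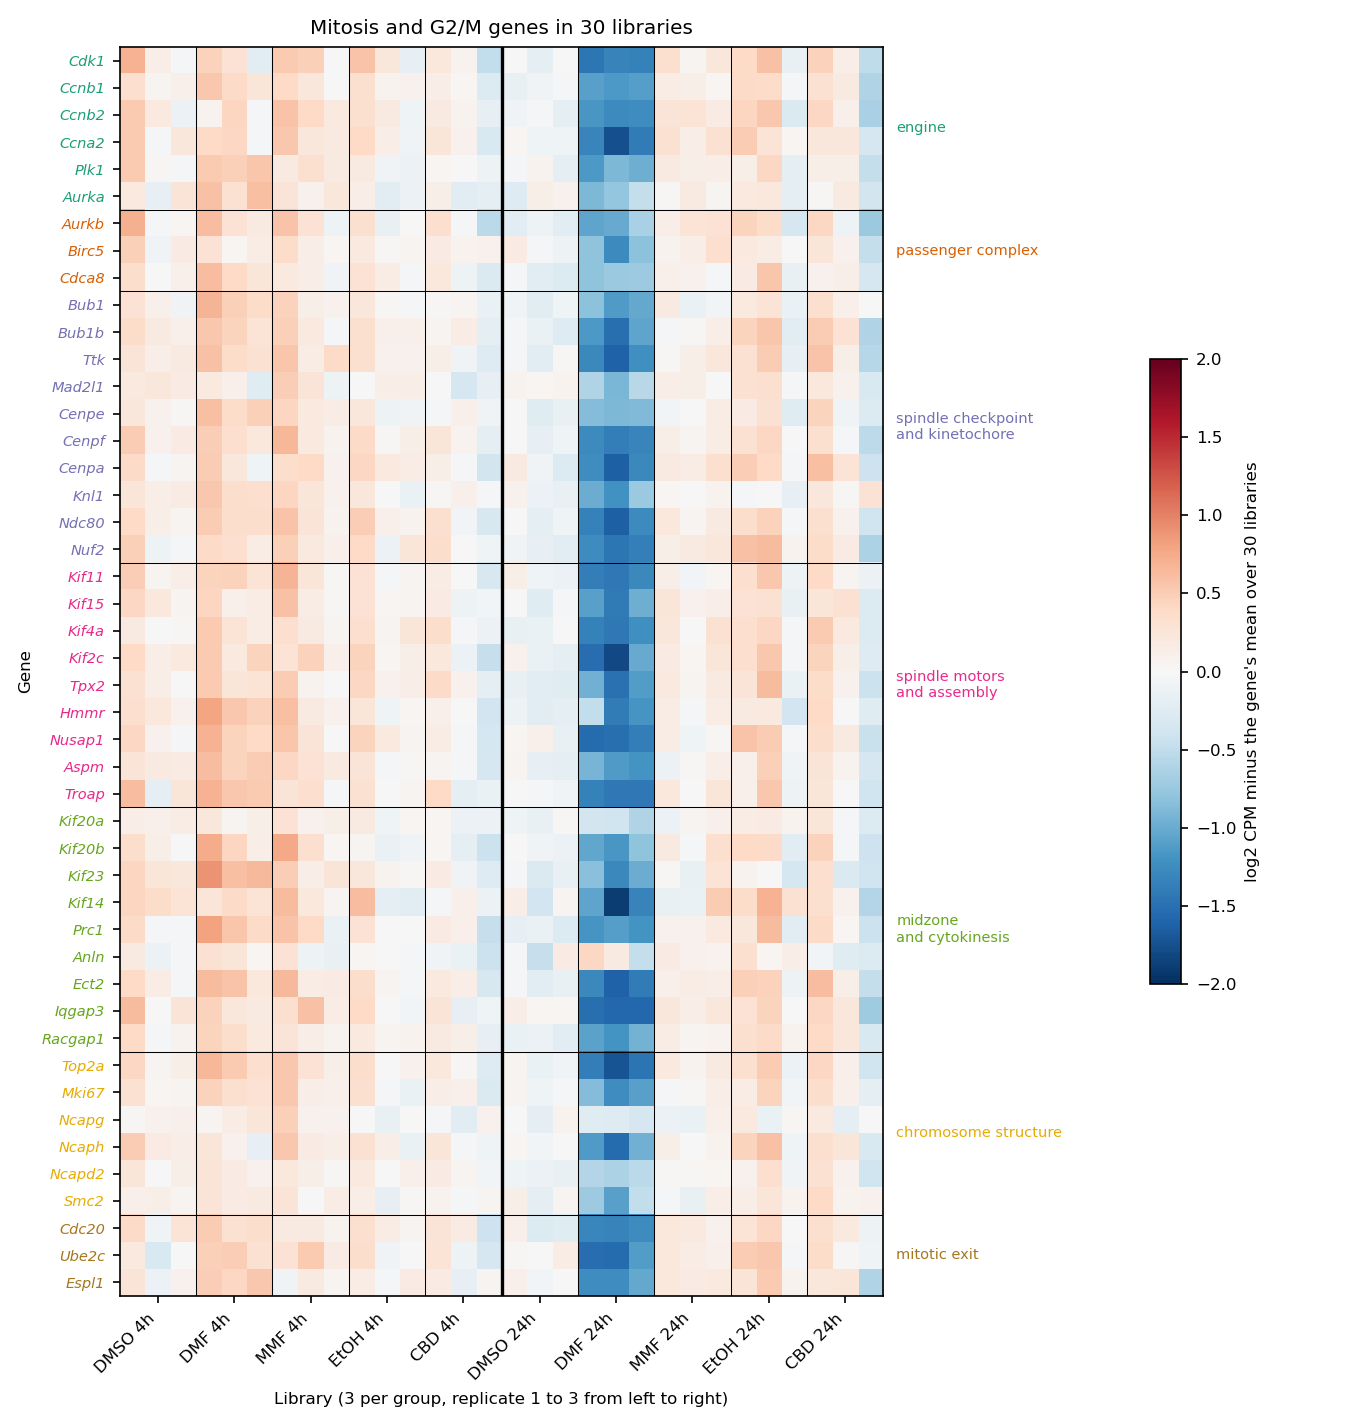
Each row is 1 of the 46 genes, ordered and coloured by role, and each column is 1 library, with 3 per group and the 4 h groups on the left. Colour gives log2 CPM minus the mean of that gene over the 30 libraries. The 3 columns of DMF at 24 h are blue for nearly every gene, with *Anln*, *Ncapg* and *Kif20a* paler.

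At 24 h, 42 of the 46 genes were called lower in DMF than in DMSO and 0 higher, where a call is an adjusted p under 0.05 in limma on log2(normalized count + 1). Over all genes tested in that comparison, 2.09% were called lower. The log2 fold changes (log2FC, DMF minus DMSO) ran from -1.60 to 0.15 with a median of -1.05, against a median of -0.0065 over all genes, and 25 genes were below -1. The 3 DMF libraries lay below all 3 DMSO libraries for 45 genes, as they did for 11.5% of all genes. The median ratio over the genes was -1.08, -1.15 and -0.98 on the log2 scale in replicates 1, 2 and 3. Since this comparison is among those the choice used, the shares are printed side by side and nothing is read from their difference. Without replicate 1 of DMSO at 24 h the count was 27.

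**Figure D3:**
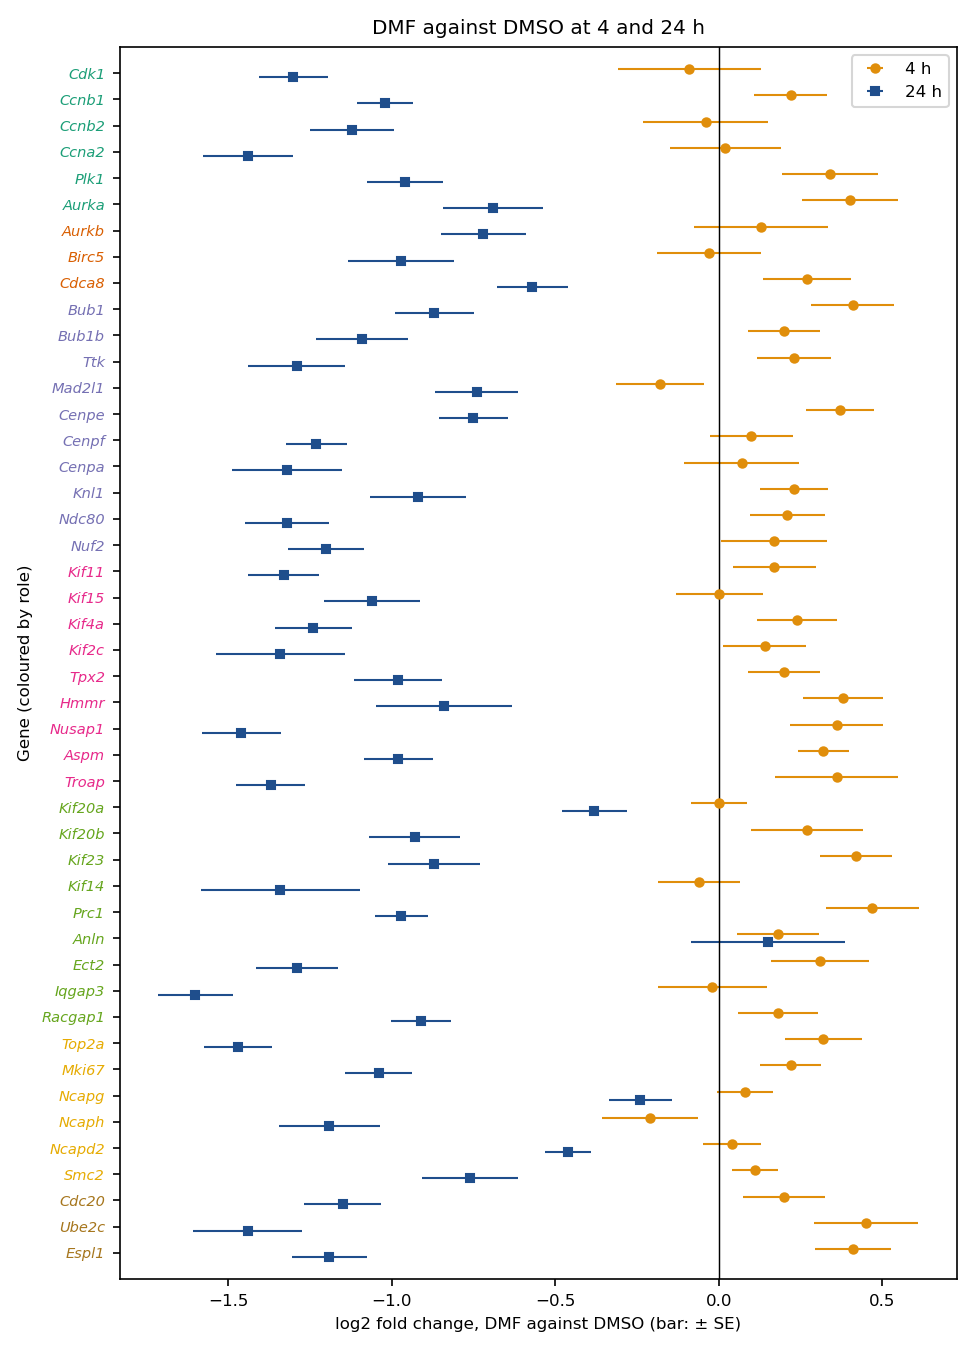
Log2FC of each of the 46 genes, DMF against DMSO, at 4 h (orange circles) and 24 h (blue squares), with horizontal bars of ± 1 SE and gene names coloured by role. At 24 h 45 genes lie below 0 and *Anln* at 0.15, whereas at 4 h 39 lie above 0.

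Levels are given below in CPM on 1 scale for all libraries, in the order of replicates 1, 2 and 3, and differences as log2FC ± SE from the table of that comparison. Among the 6 genes of the mitotic engine, all 6 were called lower at 24 h, with a median log2FC of -1.07. *Cdk1* encodes the kinase that drives entry into mitosis. *Cdk1* stood at 20.9, 18.3 and 20.7 CPM under DMSO at 24 h, at 7.71, 8.28 and 8.23 CPM under DMF at 24 h and at 28.8, 25.6 and 18.1 CPM under DMF at 4 h, with a 24 h log2FC against DMSO of -1.30 ± 0.106. *Ccnb1* encodes cyclin B1, the partner that activates CDK1. *Ccnb1* was read at 24.9, 26.2 and 27.1 CPM with DMSO and at 13, 12.5 and 12.8 CPM with DMF at 24 h (log2FC -1.02 ± 0.0864), and at 40.3, 36 and 32.6 CPM with DMF at 4 h. *Plk1* encodes polo-like kinase 1, which acts in mitotic entry, spindle assembly and cytokinesis. With DMF, *Plk1* was at 8.49, 10.1 and 9.55 CPM at 24 h and at 27.1, 26.3 and 27.7 CPM at 4 h, while DMSO at 24 h gave 18.5, 19.8 and 16.7 CPM, a log2FC of -0.96 ± 0.116 at 24 h. For all 3 genes the DMF libraries at 24 h lay below every DMSO library at 24 h and every DMF library at 4 h. *Ccna2*, the cyclin of S phase and early mitosis, had the lowest 24 h log2FC of the 6, at -1.44 ± 0.137, and *Aurka*, the kinase of the spindle poles, the one nearest 0, at -0.69.

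The chromosomal passenger complex corrects faulty attachments between kinetochores and microtubules. Its 3 members were all called lower, with a median log2FC of -0.72. *Aurkb* encodes the kinase of the complex. At 24 h *Aurkb* measured 15.8, 17.1 and 15.7 CPM in the DMSO cultures and 8.82, 9.1 and 11.7 CPM in the DMF cultures, a log2FC of -0.72 ± 0.13, after 28.3, 22.4 and 20.9 CPM at 4 h of DMF. *Birc5* encodes survivin. *Birc5* stood at 11.2, 9.76 and 9.37 CPM under DMSO at 24 h, at 5.72, 4.17 and 5.68 CPM under DMF at 24 h and at 12.3, 10.3 and 11.1 CPM under DMF at 4 h, with a 24 h log2FC against DMSO of -0.97 ± 0.162. *Cdca8* encodes borealin. *Cdca8* was read at 17.1, 15.2 and 14.5 CPM with DMSO and at 10.1, 10.5 and 10.7 CPM with DMF at 24 h (log2FC -0.57 ± 0.108), and at 27.1, 23.1 and 20.9 CPM with DMF at 4 h. The DMF and DMSO libraries at 24 h did not overlap for any of the 3, but these calls were among those that did not all pass when 1 library was left out.

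All 10 genes of the spindle checkpoint and kinetochore were called lower, with a median log2FC of -1.14 and a range of -1.32 to -0.74. *Cenpf* encodes a large kinetochore protein that peaks in G2 and M. With DMF, *Cenpf* was at 11.9, 11 and 11.5 CPM at 24 h and at 40.5, 36.4 and 33.3 CPM at 4 h, while DMSO at 24 h gave 28.6, 25.7 and 27.1 CPM, a log2FC of -1.23 ± 0.0927 at 24 h. *Bub1b* encodes the checkpoint protein BUBR1. At 24 h *Bub1b* measured 18.3, 17.1 and 15.6 CPM in the DMSO cultures and 8.44, 6.57 and 9.01 CPM in the DMF cultures, a log2FC of -1.09 ± 0.141, after 27.3, 25.4 and 22.7 CPM at 4 h of DMF. *Ndc80* encodes a subunit of the complex that binds microtubules at the kinetochore. *Ndc80* stood at 19, 16.7 and 17.8 CPM under DMSO at 24 h, at 7.44, 6.1 and 7.82 CPM under DMF at 24 h and at 27, 24 and 24 CPM under DMF at 4 h, with a 24 h log2FC against DMSO of -1.32 ± 0.128. In each of these genes the DMF libraries at 24 h were lower than all others given.

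Of the 9 genes of spindle motors and assembly, 8 were called lower, with a median log2FC of -1.24. *Aspm* encodes a spindle pole protein of dividing progenitors. *Aspm* was read at 40.9, 35.1 and 34.8 CPM with DMSO and at 20.8, 17.9 and 17.3 CPM with DMF at 24 h (log2FC -0.98 ± 0.105), and at 60.8, 53.5 and 56.4 CPM with DMF at 4 h. *Tpx2* encodes an activator of Aurora A and a spindle assembly factor. With DMF, *Tpx2* was at 16.6, 11.4 and 14.8 CPM at 24 h and at 46, 37.9 and 38.8 CPM at 4 h, while DMSO at 24 h gave 28.9, 27.9 and 27.1 CPM, a log2FC of -0.98 ± 0.134 at 24 h. *Kif11* encodes the motor that pushes the spindle poles apart. At 24 h *Kif11* measured 24.3, 21.1 and 20.8 CPM in the DMSO cultures and 8.6, 8.33 and 9.22 CPM in the DMF cultures, a log2FC of -1.33 ± 0.108, after 30.6, 31 and 27.2 CPM at 4 h of DMF. *Troap* encodes a spindle-associated protein. *Troap* stood at 16.5, 16 and 15.6 CPM under DMSO at 24 h, at 6.38, 6.1 and 6.05 CPM under DMF at 24 h and at 26.4, 23.9 and 23.4 CPM under DMF at 4 h, with a 24 h log2FC against DMSO of -1.37 ± 0.106. The 3 DMF values of *Troap* at 24 h lay close together. *Hmmr* was the gene of this group that was not called (-0.84 ± 0.209), with 10.3, 5.52 and 6.42 CPM under DMF against 13.5, 12.4 and 12.8 CPM under DMSO, where replicate 1 of DMF stood above the other 2.

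Among the 9 genes of the midzone and cytokinesis, 7 were called lower, with a median log2FC of -0.93 and a range of -1.60 to 0.15. *Prc1* encodes the protein that bundles antiparallel microtubules at the midzone. *Prc1* was read at 36.6, 37.7 and 34.1 CPM with DMSO and at 18.2, 19.2 and 17.9 CPM with DMF at 24 h (log2FC -0.97 ± 0.0818), and at 71.9, 60.4 and 53.5 CPM with DMF at 4 h. *Racgap1* encodes a component of centralspindlin. With DMF, *Racgap1* was at 15.8, 14.4 and 17.1 CPM at 24 h and at 45.1, 42.1 and 37.8 CPM at 4 h, while DMSO at 24 h gave 30.1, 30.4 and 28.5 CPM, a log2FC of -0.91 ± 0.0929 at 24 h. *Iqgap3* encodes a scaffold protein expressed in proliferating cells, and it had the lowest 24 h log2FC of the 46. At 24 h *Iqgap3* measured 14.8, 13.8 and 13.8 CPM in the DMSO cultures and 4.72, 4.52 and 4.53 CPM in the DMF cultures, a log2FC of -1.60 ± 0.115, after 18.4, 15.8 and 15.2 CPM at 4 h of DMF. *Kif20a* encodes a midzone kinesin. *Kif20a* stood at 23.1, 22.1 and 25 CPM under DMSO at 24 h, at 19, 18.7 and 16.2 CPM under DMF at 24 h and at 28.6, 25.6 and 26.5 CPM under DMF at 4 h, with a 24 h log2FC against DMSO of -0.38 ± 0.1. *Kif20a* was not called, although its groups did not overlap.

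*Anln*, which encodes the actin-binding protein anillin of the contractile ring, was the exception among the 46. *Anln* was read at 13.9, 10.4 and 16 CPM with DMSO and at 19, 16.2 and 10.3 CPM with DMF at 24 h (log2FC 0.15 ± 0.235), and at 17.8, 16.9 and 14.7 CPM with DMF at 4 h. DMF replicates 1 and 2 were above every DMSO library, whereas DMF replicate 3 was below all of them. By replicate number the log2 ratios were 0.45, 0.65 and -0.64. Its groups also overlapped in DMF against MMF at 24 h (-0.07 ± 0.202) and in DMF at 24 h against 4 h (-0.16 ± 0.21).

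Of the 6 genes of chromosome structure, 5 were called lower, with a median log2FC of -0.90. *Top2a*, the DNA topoisomerase that untangles sister chromatids (mRatBN7.2 chr10:83945735-83976874), is a marker of dividing cells. With DMF, *Top2a* was at 29.1, 22.9 and 27.8 CPM at 24 h and at 120.5, 109.9 and 95.9 CPM at 4 h, while DMSO at 24 h gave 79.4, 69.1 and 72.5 CPM, a log2FC of -1.47 ± 0.103 at 24 h. *Mki67* encodes the proliferation antigen Ki-67, which coats mitotic chromosomes. At 24 h *Mki67* measured 61.1, 55.5 and 57.4 CPM in the DMSO cultures and 32.3, 24.9 and 27.8 CPM in the DMF cultures, a log2FC of -1.04 ± 0.101, after 81.4, 74.1 and 71.8 CPM at 4 h of DMF. *Ncapd2* encodes a subunit of condensin I. *Ncapd2* stood at 43.3, 42.3 and 41.4 CPM under DMSO at 24 h, at 30.8, 29.7 and 31.6 CPM under DMF at 24 h and at 55.1, 51.7 and 48.8 CPM under DMF at 4 h, with a 24 h log2FC against DMSO of -0.46 ± 0.0701. *Ncapg*, another condensin I subunit, was not called (-0.24 ± 0.0966), with 24, 23.8 and 22.4 CPM under DMF and 28.6, 24.7 and 29.9 CPM under DMSO.

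The 3 genes of mitotic exit were all called lower, with a median log2FC of -1.19. *Cdc20* encodes the activator of the anaphase promoting complex. *Cdc20* was read at 29.7, 23 and 23.4 CPM with DMSO and at 11.3, 11 and 11.6 CPM with DMF at 24 h (log2FC -1.15 ± 0.119), and at 39.7, 34.5 and 35.5 CPM with DMF at 4 h. *Espl1* encodes separase, which cuts cohesin. With DMF, *Espl1* was at 6.94, 6.98 and 8.11 CPM at 24 h and at 23.2, 22.1 and 24 CPM at 4 h, while DMSO at 24 h gave 17.8, 15.9 and 16.6 CPM, a log2FC of -1.19 ± 0.116 at 24 h. *Ube2c* encodes the ubiquitin-conjugating enzyme that works with the complex. At 24 h *Ube2c* measured 7.65, 7.53 and 8.36 CPM in the DMSO cultures and 2.61, 2.58 and 3.46 CPM in the DMF cultures, a log2FC of -1.44 ± 0.167, after 10.4, 10.6 and 9.29 CPM at 4 h of DMF. No DMF library at 24 h reached a DMSO library at 24 h in any of the 3.

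Against MMF at 24 h and against its own 4 h libraries, DMF at 24 h was again the lower group. These comparisons share the DMF libraries at 24 h with the one above, so they are not separate evidence. DMF against MMF at 24 h gave 43 genes called lower (2.12% of all genes) with a median log2FC of -1.27 and a range of -1.73 to -0.07, and 45 genes did not overlap (11.1% of all genes). *Kif20a*, *Ncapg* and *Anln* were not called there. DMF at 24 h against 4 h gave 45 genes called lower (7.93% of all genes), all but *Anln*, with a median of -1.57 and 45 genes without overlap (18.3% of all genes). *Top2a* had the lowest value there, at -2.03 ± 0.117.

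At 4 h the members stood slightly higher with DMF than with DMSO, but 0 of 46 were called by limma (3.41% of all genes were called in either direction). At an unadjusted p under 0.05 there were 13, edgeR called 0 and DESeq2 called 3 (*Aspm*, *Kif23* and *Prc1*, all higher). No share of all genes stands beside these counts, so nothing is read from them. The log2FC had a median of 0.20 (0.14 to 0.30 with single libraries left out, the latter without replicate 1 of DMSO) and ran from -0.21 to 0.47, with SEs of 0.0697 to 0.218, and 39 genes were above 0. DMF lay above DMSO in all libraries for 11 genes, against 13% of all genes. With the replicate number as a block, 17 genes were called higher and 0 lower, where 11.5% of all genes were called higher. *Prc1* had 1438, 1206 and 1075 normalized counts with DMF and 1076, 808 and 814 with DMSO, a log2FC of 0.47 ± 0.142. DMF was above DMSO within each replicate number, although DMF replicate 3 did not exceed DMSO replicate 1. *Kif23*, which encodes a motor subunit of centralspindlin, had 655, 533 and 555 with DMF and 471, 417 and 412 with DMSO (0.42 ± 0.11), and *Aspm* had 1216, 1069 and 1132 against 943, 893 and 891 (0.32 ± 0.0772). Both of these genes had groups that did not overlap. *Cdk1*, *Birc5* and *Iqgap3* stood at log2FC near 0 and turned sign when single libraries were left out.

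In DMF against MMF at 4 h, which shares the DMF libraries with the comparison above, the members also stood a little higher with DMF. limma called 0 of 46 (1.61% of all genes in either direction), 8 had an unadjusted p under 0.05, edgeR called 0 and DESeq2 called 1, *Espl1*. The median log2FC was 0.11. It was 0.05 without replicate 1 of DMF, 0.05 without replicate 3 of MMF, 0.18 without replicate 3 of DMF and 0.24 without replicate 1 of MMF. DMF lay above MMF without overlap for 8 genes, against 12.3% of all genes. The replicate block gave 12 genes called higher, among 12% of all genes called higher.

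Against DMSO, MMF gave no called member in limma, edgeR or DESeq2 without the replicate block. At 4 h limma called 0 of 46 genes, as it called 0% of all genes, with 0 at an unadjusted p under 0.05 and 0 by edgeR and by DESeq2. The median log2FC was 0.06, with SEs of 0.0883 to 0.229, and with single libraries left out it ran from -0.03, without replicate 1 of MMF, to 0.15, without replicate 1 of DMSO. At 24 h limma called 0 of 46 (0.00707% of all genes), with 19 at an unadjusted p under 0.05 and 0 by edgeR and by DESeq2, a median log2FC of 0.19 and a range of -0.02 to 0.41. MMF lay above DMSO in all libraries for 18 genes, against 4.62% of all genes. With the replicate block 4 genes were called higher (*Aurkb*, *Prc1*, *Top2a* and *Tpx2*), where 1.21% of all genes were. *Top2a* had 1693, 1555 and 1670.2 normalized counts with MMF and 1547, 1334 and 1405 with DMSO (0.20 ± 0.0676). *Prc1* had 846, 848 and 910.4 against 713, 727 and 661 (0.31 ± 0.065). In both genes every MMF library exceeded every DMSO library, in the opposite direction to DMF at the same dose and time. Summed over the 46, MMF at 24 h held 1081, 1042 and 1115 CPM.

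With CBD against EtOH the members were close to their vehicle. At 4 h limma called 0 of 46 (0.00705% of all genes), with 1 at an unadjusted p under 0.05 and 0 by edgeR and by DESeq2, and a median log2FC of -0.13, which ran from -0.25 without replicate 1 of CBD to -0.03 without replicate 3 of CBD. *Anln*, *Cenpa* and *Mad2l1* lay below EtOH without overlap at 4 h, among 5.25% of all genes. At 24 h limma called 0 of 46 (0.114% of all genes), again with 1 at an unadjusted p under 0.05 and 0 by edgeR and by DESeq2, a median of -0.20, a range of -0.51 to 0.24 and SEs of 0.112 to 0.307. The 24 h median was 0.01 without replicate 3 of CBD and -0.07 without replicate 2 of EtOH. It was -0.35 without replicate 1 of CBD and -0.36 without replicate 3 of EtOH. Leaving out 1 library breaks a pair of the same replicate number. Within replicates 1, 2 and 3 the median ratios were 0.06, -0.33 and -0.29 on the log2 scale, and 42 of the 46 genes had a log2FC below 0. *Anln* lay below EtOH without overlap (260.1, 229 and 226 normalized counts against 339, 279 and 297), among 8.59% of all genes, and *Knl1*, a kinetochore scaffold gene, lay above EtOH without overlap, among 7.35% of all genes. The spread within these groups was wide. *Top2a* had 1909, 1540.0 and 1087 normalized counts with CBD and 1807, 2045 and 1325 with EtOH, where replicate 3 was the lowest in both groups.

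The choice did not name the 6 remaining comparisons, but every library in them also entered comparisons that it did name, so their values are not independent of it. limma called 0% of all genes and 0 of the 46 in each of the 6, and so did edgeR and DESeq2 for the 46. For EtOH at 24 h against 4 h, 0 genes had an unadjusted p under 0.05, and the median log2FC was 0.08 (-0.03 without replicate 2 and 0.23 without replicate 3 of EtOH at 24 h). For CBD at 24 h against 4 h there were also 0 genes, with a median of 0.05 (-0.10 without replicate 1 and 0.24 without replicate 3 of CBD at 24 h). For MMF at 24 h against 4 h there was 1 gene, with a median of -0.15 (-0.25 without replicate 3 and -0.04 without replicate 1 of MMF at 4 h). For DMSO against EtOH at 4 h there were 0 genes, with a median of 0.07 (-0.05 with replicate 1 of DMSO left out and 0.15 with replicate 1 of EtOH left out). Except for MMF over time, these medians changed sign with the library left out.

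Most members with an unadjusted p under 0.05 in these 6 comparisons were in the 2 that involve DMSO at 24 h. Those counts stand without the share of all genes. For DMSO at 24 h against 4 h there were 21, with a median log2FC of -0.26 (-0.31 to -0.15 with single libraries left out, the latter without replicate 1 at 4 h) and a range of -0.46 to 0.09. The 24 h libraries lay below the 4 h libraries for 24 genes, against 7.51% of all genes. With the replicate block 1 gene was called, *Kif23* (-0.46 ± 0.0993), where 0.372% of all genes were called lower. *Kif23* had 308, 257 and 287 normalized counts at 24 h and 425, 375 and 369.5 at 4 h. For DMSO against EtOH at 24 h there were 14, with a median of -0.28 (-0.46 without replicate 3 and -0.16 without replicate 2 of EtOH). The block there called *Nuf2* (-0.57 ± 0.109) and *Racgap1* (-0.41 ± 0.0771) lower, where 0.207% of all genes were. DMSO at 24 h is the reference of DMF at 24 h, and the DMF libraries lay below it for 45 of the 46.

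**Figure D4:**
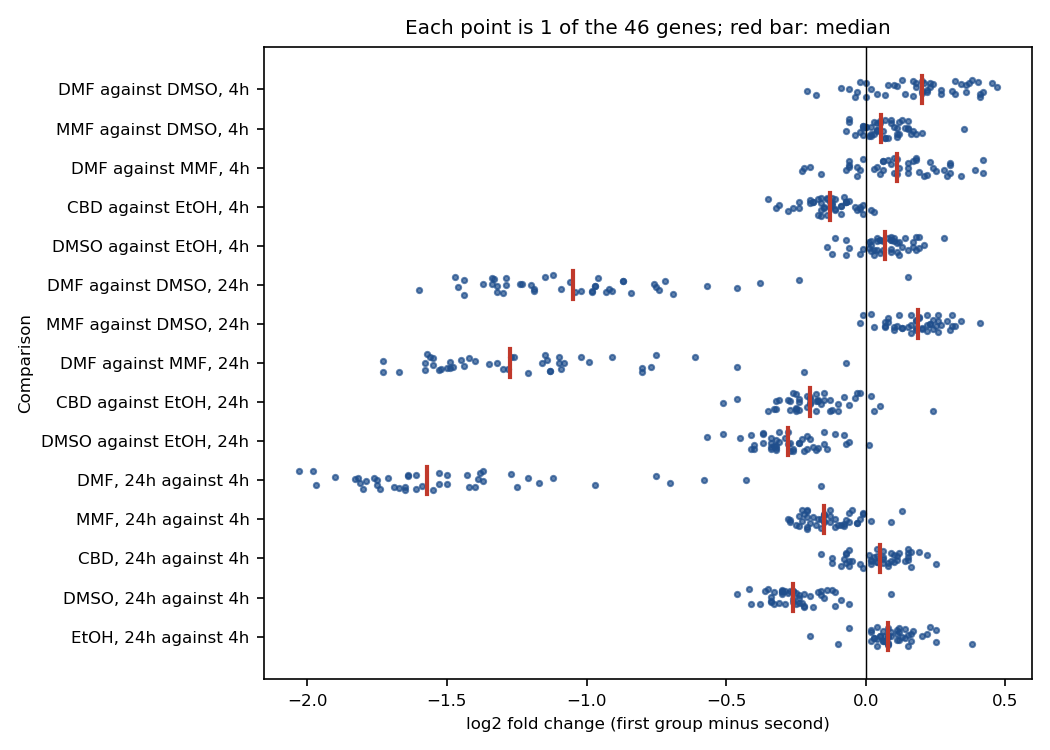
Log2FC (horizontal axis, first group minus second) of the 46 genes, 1 point each, in the 15 comparisons, with a red bar at the median. The medians of DMF against DMSO, DMF against MMF and DMF over time, all at 24 h, are -1.05, -1.27 and -1.57, and the other 12 medians lie between -0.28 and 0.20.

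The difference of the DMF effect between the times was estimated over the 12 DMF and DMSO libraries. The effect at 24 h was below that at 4 h for 41 genes called by limma (2.33% of all genes), with a median difference of -1.28. *Aurkb*, *Mad2l1*, *Kif20a*, *Ncapg* and *Anln* were not called. At 24 h, the effect of CBD against EtOH was above that of DMF against DMSO for 2 genes called by limma, *Knl1* (1.16 ± 0.189) and *Cdc20* (1.05 ± 0.199), among 0.105% of all genes called higher. The median difference was 0.87. With the replicate block 21 genes were called, among 1.1% of all genes called higher, and DESeq2 called 21. Leaving out 1 library at a time changed the count of 2. It became 25 without replicate 3 of CBD, 4 without replicate 2 of EtOH, 1 without replicate 3 of DMF, replicate 3 of DMSO or replicates 1 or 2 of CBD, and 0 without replicates 1 or 2 of DMF or of DMSO or replicates 1 or 3 of EtOH. Both differences use libraries of the comparisons that chose the genes, so they too are a description.

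Other mitotic genes, from lists drawn up with earlier results of these data known, were also lower with DMF at 24 h in this same comparison. Over all 13967 genes tested there, 2.09% were called lower and 262 genes higher. Of 16 mitotic regulators outside the 46, 9 were called lower in DMF than in DMSO and 0 higher, with a median log2FC of -0.66. *Cdca3*, a regulator of mitotic entry, had 127, 112 and 124 normalized counts with DMF and 313, 287 and 254 with DMSO (-1.22 ± 0.124). *Ccnf*, which encodes cyclin F, had 292, 263 and 281 against 500.2, 427 and 455 (-0.72 ± 0.0972). Of 45 structural mitotic genes outside the set, 25 were called lower and 0 higher, with a median of -0.82. *Smc4*, a condensin core subunit, had 358, 306 and 352 against 632, 579 and 585 (-0.82 ± 0.0928). *Incenp*, the scaffold of the passenger complex, had 368, 337 and 398 against 668, 662 and 600.4 (-0.81 ± 0.0927). The DMF and DMSO libraries did not overlap for any of these 4 genes.

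In the machinery that destroys mitotic proteins, few genes were called. Of 16 genes of the anaphase promoting complex and its partners, 2 were called lower and 0 higher, with a median log2FC of -0.03. Over all genes, 2.09% were called lower. The called genes were *Pttg1*, which encodes securin (74.8, 85.8 and 67.5 against 144, 169 and 144 normalized counts, a mean of 76.1 ± 9.22 against 152 ± 14.4, SD, n = 3), and *Fbxo5*, which encodes the inhibitor EMI1 (36.9, 43.5 and 52.3 against 88.3, 74.2 and 101, -0.98 ± 0.202). No subunit of the complex itself was called.

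Of 21 tested genes in the transcriptional control of mitotic genes, 5 were called lower at 24 h and 0 higher, with a median of -0.15. Over all genes, 2.09% were called lower at 24 h, and 220 of 14208 at 4 h. *Mybl2*, the MYB factor that joins the MuvB complex, had 136, 126 and 168 normalized counts with DMF and 292, 295 and 314 with DMSO (-1.07 ± 0.13). *E2f8* was at -1.41 ± 0.3, *E2f7* at -0.93 ± 0.155, *Rbl1* at -0.66 ± 0.135 and *E2f1* at -0.39 ± 0.0818. *Foxm1*, a forkhead activator of G2 and M genes, did not pass the filter on low counts. At 4 h the only gene of this list that was called was *Nfya*, which encodes a subunit of the CCAAT-binding factor NF-Y. It had 756, 675 and 636 normalized counts with DMF and 1576, 1785 and 1848 with DMSO (-1.33 ± 0.0949), and at 24 h it was at 1505, 1504 and 1772 against 1566, 1644 and 1704 (-0.04 ± 0.0803). The DMF and DMSO libraries were far apart for *Nfya* at 4 h and overlapped at 24 h.

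Of 19 CDK inhibitors and G1 genes, 3 were called higher and 3 lower at 24 h. Over all 13967 genes tested at 24 h, 262 were called higher and 292 lower. *Cdkn1a*, which encodes the CDK inhibitor p21, had 927, 1422 and 1193 normalized counts with DMF and 387, 320.0 and 326 with DMSO (1.76 ± 0.149). *Cdkn2b*, which encodes the inhibitor p15, had 96.3, 136 and 169.9 against 40.3, 47.8 and 31.1 (1.71 ± 0.246), and *Gadd45b*, a stress-induced gene, was at 0.83 ± 0.164. *Cdkn2d*, *Cdk2* and *Ccne2* were lower, at -0.45 ± 0.101, -0.60 ± 0.129 and -0.61 ± 0.128. At 4 h none of the 19 was called, and *Cdkn1a* was at 0.45 ± 0.298. Of 33 genes of DNA replication and S phase, 14 were called lower and 0 higher at 24 h, with a median of -0.53, and 0 at 4 h. *Rrm1*, a subunit of ribonucleotide reductase, had 918, 909 and 913 against 1278, 1259 and 1421 (-0.53 ± 0.0698).

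Genes of the mitotic lists called higher with DMF at 4 h included *Wee1*, *Pkmyt1* and *Ska3*. They were picked from lists of 18 regulators and 46 structural genes, whose counts called higher or lower at 4 h are not given here. Over all genes tested at 4 h, 265 of 14208 were called higher. *Wee1* and *Pkmyt1* encode kinases that hold CDK1 inactive. *Wee1* had 531, 560.1 and 527 normalized counts with DMF and 399.8, 430.2 and 379 with DMSO (0.42 ± 0.0907). *Pkmyt1* had 279.9, 262 and 328 against 195, 155 and 185 (0.70 ± 0.141), and at 24 h it was called lower (-0.60 ± 0.139). *Ska3*, a gene of the outer kinetochore, was at 0.60 ± 0.0999. For *Wee1* and *Pkmyt1* the groups did not overlap at 4 h. Any link of these genes to the levels of the 46 at 24 h was not tested.

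**Figure D5:**
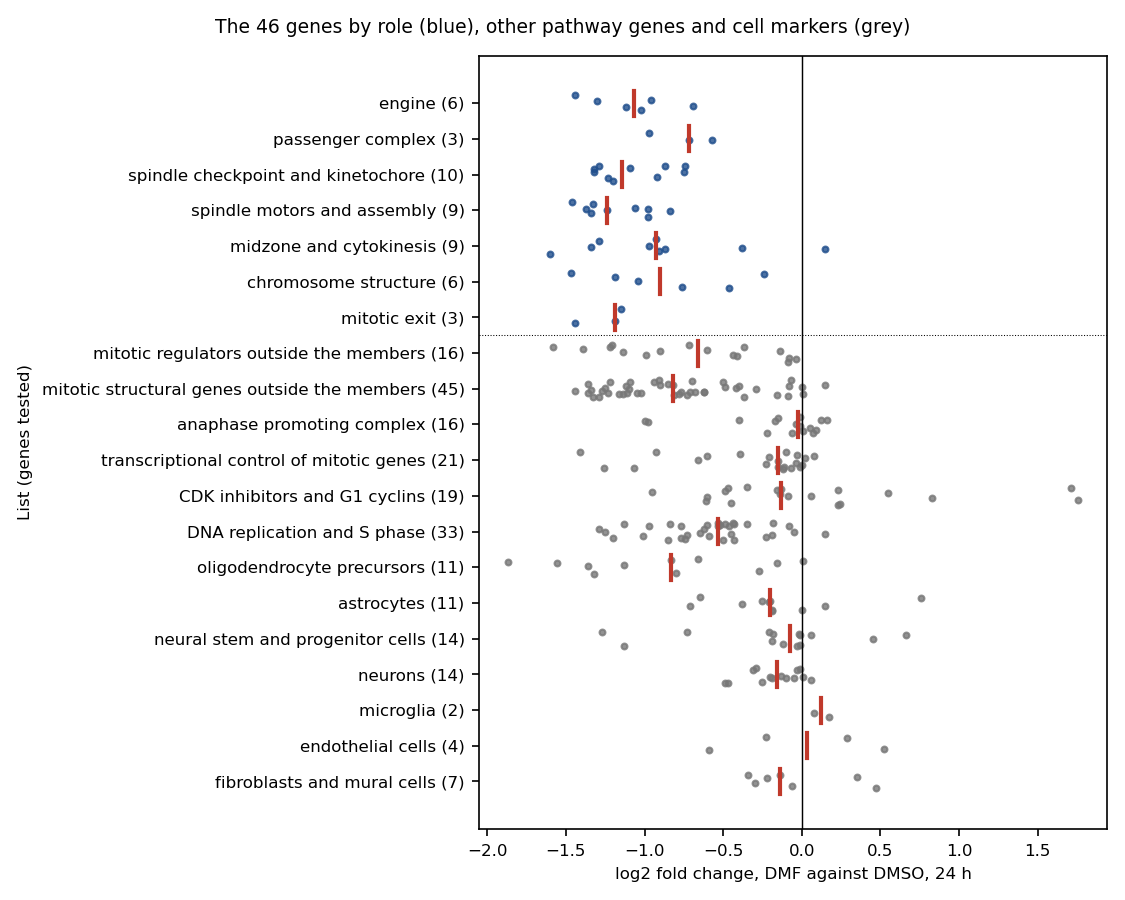
Log2FC (horizontal axis) in DMF against DMSO at 24 h, 1 point per gene tested, for the 46 genes by role (blue) and for other pathway and cell marker lists (grey), with a red bar at each median and the number of genes in brackets. The medians of the 7 roles lie between -1.24 and -0.72, that of S phase genes at -0.53 and that of neuronal markers at -0.16.

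Most markers of oligodendrocyte precursors were lower in the same libraries, where 2.09% of all genes were called lower. Of 11 oligodendrocyte precursor markers, 8 were called lower in DMF at 24 h and 0 higher, with a median log2FC of -0.83, and their summed level was 734 to 863 CPM with DMF against 947 to 1145 CPM with DMSO. *Pdgfra*, the growth factor receptor of these precursors, had 803, 557 and 656 normalized counts with DMF and 2414, 1887 and 1658 with DMSO (-1.56 ± 0.159), and *Cspg4*, which encodes NG2, had 436, 425 and 470.4 against 1060.3, 926 and 942 (-1.13 ± 0.0839). Of 14 markers of neural stem and progenitor cells, 3 were called lower (*Hes5* at -1.13, *Eomes* at -1.27 and *Fabp7* at -0.73), with a median of -0.07 and 1728 to 2018 CPM against 1909.6 to 2488 CPM. The list as a whole was thus near its vehicle, with summed levels that overlapped. Of 11 astrocyte markers 1 was called lower, *Aldh1l1*, with 3301 to 5999.9 CPM against 3184 to 5368 CPM. Of 14 neuronal markers 0 were called, with a median of -0.16 and 6673 to 7915 CPM against 7827 to 8756 CPM. Of the markers of microglia 2 of 11, of endothelial cells 4 of 8 and of fibroblasts and mural cells 7 of 9 passed the filter, and 0 were called. Microglia markers summed to 4.65 to 6.66 CPM with DMF and 3.51 to 4.23 CPM with DMSO. Endothelial markers summed to 8.27 to 10.8 and 9.85 to 11.4 CPM (*Cdh5* was at 0 in all 3 DMF libraries). Fibroblast and mural markers summed to 65.8 to 91.7 and 59.2 to 97.1 CPM (*Rgs5* was at 0 in all 3 DMSO libraries). The part of these cells in the levels of the 46 genes was not tested.

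Outside DMF at 24 h, the 46 genes varied together across the other 27 libraries. Each gene's log2 CPM was correlated with the log2 of the summed CPM of the other members. The correlation had a median of 0.86 over those libraries, from 0.38 for *Ncapg* to 0.99 for *Top2a*. *Ndc80* and *Prc1* stood at 0.97 and 0.95, and *Mad2l1*, *Smc2* and *Knl1* at 0.59, 0.59 and 0.60. These points share libraries, repeats of the experiment and depth, and the values are a description. No such correlation was computed for genes outside the 46, so the values are not shown to be particular to the set. The 4 genes not called in DMF against DMSO at 24 h, *Ncapg*, *Anln*, *Kif20a* and *Hmmr*, stood at 0.38, 0.65, 0.81 and 0.91. *Mad2l1*, *Smc2* and *Knl1* stood below *Anln* here and were called lower at 24 h.

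Promoter windows from RefSeq (GRCr8) were at hand for 40 of the 46 genes, in 41 windows that run from 250 bases before to 50 bases after the transcription start. They were searched on both strands for the CCAAT box (CCAAT, or ATTGG on the other strand), which NF-Y binds, and for the cell cycle genes homology region (CHR, TTTGAA or TTCGAA, the former TTCAAA on the other strand and the latter its own reverse complement), through which the DREAM and MuvB complexes act. A CCAAT box was in 28 of 41 windows (68.3%), against 37.5% of all 33469 windows. A CHR was in 31 (75.6%), against 19.7% of all windows and 13.7% of the windows of genes tested at 24 h. Both were in 23 windows (56.1%), against 7.95% of all windows, and 5 windows, of *Aurka*, *Bub1*, *Ncaph* and *Kif2c* (which has a pair), held neither. The median 24 h log2FC was -1.06 for the 31 genes with a CHR match and -1.02 for the 9 without. It was -1.03 for the 28 genes with a CCAAT match and -1.08 for the 12 without. The CCAAT share was not particular to the 46. It was 60% among genes of the anaphase promoting complex, 70% among S phase genes and 73.3% among the mitotic regulators outside the 46. The CHR share was not particular to the 46 either. A CHR was in 10 of 15 windows (66.7%) of the mitotic regulators outside the 46. In the structural mitotic genes outside the 46 it was in 26 of 39 (66.7%). Among genes of the anaphase promoting complex, whose median log2FC was -0.03, a CHR was in 4 of 15 windows (26.7%), and among S phase genes in 5 of 30 (16.7%). A match is a run of letters, not a bound site.

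The stretches below show the 150 bases just before the start, 5′ to 3′ on the gene's strand, with CCAAT and CHR matches in capitals. They come from the genes with the highest mean CPM in 3 roles (*Top2a*, *Ccnb1* and *Prc1*), from *Ccnb2* as the other cyclin B gene, and from *Anln* as the gene without a lower level. The last 2 were picked after their values were seen. *Top2a* is at chr10:84473094-84473243 (GRCr8, minus strand), *Ccnb1* at chr2:33655226-33655375 (minus strand), *Prc1* at chr1:143659331-143659480 (plus strand), *Ccnb2* at chr8:79981659-79981808 (minus strand) and *Anln* at chr8:29197514-29197663 (minus strand).
Top2a: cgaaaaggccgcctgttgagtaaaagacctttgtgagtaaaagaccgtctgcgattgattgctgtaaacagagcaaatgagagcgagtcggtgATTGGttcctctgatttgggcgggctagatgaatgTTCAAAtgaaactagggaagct
Ccnb1: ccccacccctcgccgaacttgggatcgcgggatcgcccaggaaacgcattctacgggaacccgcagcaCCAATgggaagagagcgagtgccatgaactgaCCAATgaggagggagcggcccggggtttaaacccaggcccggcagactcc
Prc1: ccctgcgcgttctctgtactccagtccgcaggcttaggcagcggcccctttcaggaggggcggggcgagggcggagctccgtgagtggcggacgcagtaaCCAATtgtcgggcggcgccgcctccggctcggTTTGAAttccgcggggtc
Ccnb2: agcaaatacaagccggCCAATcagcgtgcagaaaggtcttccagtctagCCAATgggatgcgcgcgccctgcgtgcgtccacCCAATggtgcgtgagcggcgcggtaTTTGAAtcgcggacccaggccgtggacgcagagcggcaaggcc
Anln: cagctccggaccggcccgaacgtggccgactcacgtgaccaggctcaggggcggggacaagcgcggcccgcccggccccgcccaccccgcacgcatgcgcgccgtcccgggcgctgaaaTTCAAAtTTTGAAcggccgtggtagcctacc
In the 150 bases shown, *Top2a* and *Prc1* each had 1 CCAAT box and 1 CHR, with the CHR ending 16 and 12 bases before the start. There *Ccnb2* had 3 CCAAT boxes and 1 CHR, and *Ccnb1* had 2 CCAAT boxes and no CHR match. The full windows held 4 CCAAT boxes and 2 CHR matches for *Top2a*, 2 CCAAT boxes for *Prc1* and 2 CHR matches for *Ccnb2*. *Anln* had 2 CHR matches and no CCAAT box, and its 24 h log2FC was 0.15. *Ccnb1*, which held neither TTTGAA nor TTCGAA, the only CHR forms searched, was at -1.02. Whether the matches bear on the levels was not tested.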

How the data were processed

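RNA-sequencing of 30 libraries (10 groups of 3) was analysed. Per the labels and the study's methods, the authors used Trimmomatic 0.39 and cutadapt 4.4 for trimming, HISAT2 2.2.1 for alignment (mRatBN7.2) and HTSeq 2.0.3 for counts per gene, and they divided the counts of each comparison by DESeq2 1.40.2 size factors. The deposited tables, 1 per comparison, hold these normalized counts, a signal that was scaled separately in each table, beside the authors' own fold changes, p-values and mean levels, which were not used. Whether counting used strand is not given in the sources used here, so overlapping and antisense genes cannot be told apart. Of the tables, 15 were used, and 4 that set CBD against DMF or MMF were not. Whole reads were recovered by dividing out each library's step: 100.0% of values were whole to within 0.01 reads, and no value differed between tables.

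The members and all lists were chosen with earlier results of these data known. Genes named with values were the 3 members per role with the highest mean CPM, *Top2a*, *Iqgap3* and *Troap*, members above 0 in DMF against DMSO at 24 h, and at most 5 called genes per list; *Hmmr*, *Ncapg*, *Kif23*, *Knl1* and others outside that rule were named after their values were seen.

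Each comparison was fitted with limma 3.58.1 (R 4.3.3; empirical Bayes with mean trend) on log2(normalized count + 1), which understates changes of low genes, in the 6 libraries of its table, after edgeR 4.0.16 filterByExpr on the recovered reads, with Benjamini-Hochberg adjustment over all genes tested and calls at an adjusted p under 0.05. Differences between effects used 12 libraries and median-ratio size factors. Levels are CPM with TMM library sizes over all 30 libraries. The replicate number was a block in an alternative fit: libraries of the same number deviated together in all 15 comparisons (correlations of 0.129 to 0.668, against at most 0.185 between different numbers), a pairing taken from the numbers in the labels, and the methods describe 3 repeats of the experiment. Other alternatives were DESeq2 1.42.0, edgeR's quasi-likelihood test, scaling by TMM, no filter, a pseudocount of 0.1, the spread of all 30 libraries and leaving out libraries. Scripts were tested on simulated data. Not every gene of the lists is reported here.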

Additional observations from a re-analysis of the deposited data

Results flagged for a closer look

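The difference of the DMF effect between the times, an interaction term in limma, was past the threshold for 41 of the 46 genes, as it was in that direction for 2.33% of all genes, all 41 with a lower effect at 24 h than at 4 h. The median difference was -1.28 on the log2 scale, and the count stayed between 32, without replicate 1 of DMSO at 24 h, and 42 when single libraries were left out. *Nfya*, a gene outside the 46, had the reverse course, with a log2FC of -1.33 at 4 h and -0.04 at 24 h.

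The difference between the effects of CBD and DMF at 24 h was past the threshold for 2 genes, *Knl1* and *Cdc20*, both with a higher effect of CBD, among 0.105% of all genes. The count went from 0 to 25 when single libraries were left out, and it was 16 without replicate 3 of every group. Both differences use libraries that entered the choice of the genes, so they are a description and no independent test.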

How the results depend on the processing

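The count of members called lower with DMF against DMSO at 24 h was 42 to 44 under the other tools, scalings, filters and the replicate block, and 27 to 42 with single libraries left out (27 without replicate 1 of DMSO). It was 37 to 43 for DMF against MMF at 24 h, 43 to 45 for DMF over time and 32 to 42 for the difference of the DMF effect when libraries were left out. The replicate block gave 17 called members for DMF against DMSO at 4 h (15 in edgeR with the block, 3 in DESeq2, and 1, *Bub1*, with the spread of all 30 libraries), 12 for DMF against MMF at 4 h (12 in edgeR with the block, 1 in DESeq2), 4 for MMF against DMSO at 24 h (5 in edgeR with the block, which adds *Cdc20*), 1 for DMSO over time (1 in edgeR with the block), 2 for DMSO against EtOH at 24 h (3 in edgeR with the block, which adds *Tpx2*) and 21 for CBD against DMF effects (21 in edgeR with the block, 21 in DESeq2, and 1, *Knl1*, with no filter). For that last comparison the counts ran from 0 to 25 with libraries left out. The block moved no other count of called members by more than 1.5 times. The cause of these changes was not tested. Counts from edgeR and DESeq2 stand without the share of all genes and are listed only.

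Values near 0 changed sign for 7 of the 24 named members, and the other members were not checked singly. With libraries left out, *Anln* at 24 h ran from -0.03 to 0.55 (below 0 without replicate 1 of DMF or replicate 2 of DMSO). At 4 h *Aurkb* ran from -0.01 to 0.37, *Birc5* from -0.16 to 0.11, *Cdk1* from -0.23 to 0.12, *Iqgap3* from -0.17 to 0.15, *Kif20a* from -0.04 to 0.04 and *Ncapd2* from -0.02 to 0.11. *Kif20a* was also -0.01 with TMM scaling, -0.00183 in edgeR and -0.00215 in edgeR with the block. Of the 24 named members, *Aurkb*, *Birc5*, *Cdca8* and *Ncapd2* lost their 24 h call when some single libraries were left out, *Aurkb* also with the spread of all 30 libraries, and *Kif20a* gained one under the block. The lowest member had 29 reads in a library.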
